A study of Rattus norvegicus with 16 samples.

Results

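The 51 genes described here encode subunits of the mitochondrial respiratory chain and of ATP synthase, with a few close relatives of subunits that their names place beside them. They are the rows of the array table that carry exactly 1 gene symbol, with a symbol of the Nduf (complex I), Uqcr (complex III), Cox4 to Cox8 (complex IV) or Atp5 (complex V) families, out of 13215 genes with a row of their own. Complex I had 19 members, complex III 6, complex IV 12 and complex V 14, and each gene had a single such row, so the rule's choice of the brightest row removed none. The members were chosen by name and no value entered the rule, but the choice was made with earlier results of these data known.

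The respiratory chain passes electrons from NADH and ubiquinol to oxygen and pumps protons out of the mitochondrial matrix, and ATP synthase lets them return to make ATP. Complex I takes electrons from NADH, complex III passes them from ubiquinol to cytochrome c, complex IV passes them to oxygen, and complex V is the ATP synthase. Nuclear genes encode the members, and complexes I, III, IV and V also contain subunits encoded in mitochondrial DNA, which are not among them. The fasting liver relies on this chain to re-oxidise the NADH and reduced flavins that fatty acid oxidation produces and to supply ATP for making glucose.

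Liver RNA from 16 male Sprague Dawley rats was measured on Affymetrix Rat Exon 1.0 ST arrays, which carry probes along the exons of each gene, with 1 array per animal. Of 4 groups with 4 rats each, the fed group ate, the P2 group was fasted into phase 2 of fasting, the P3 group into phase 3, and the P3r2 group reached phase 3 before 2 days of re-feeding. Phase 2 is the stage of a long fast in which animals burn mostly fat, and phase 3 the later stage in which they turn to body protein. Rats were assigned at random. No genetic change or drug was part of the design, and neither age nor length of fast is given in the sources used here. The tissue was whole liver, in which fewer cells of a type and less RNA per cell cannot be told apart.

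The values are log2 signals. In what follows a difference is a log2 fold change ± the standard error of the limma fit with 4 arrays a group, so that 1 unit is a 2-fold change. "Called" and the verbs rose and fell mean an adjusted p below 0.05 from limma over all 13947 rows tested, and a gene that "stood at" a value had a difference, from fed unless another group is named, that was not called. The level of one gene cannot be set against that of another on an array, since each has its own probes. Precision is limited by the 4 arrays of each group.

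One fed array stood apart for these genes. Fed 2 had the lowest signal of the 4 fed arrays in 39 of the 51 members and the lowest of all 16 arrays in 34. Each array's median deviation from the members' 16-array means was -0.76 log2 units in fed 2 and lay between -0.35 and -0.15 in the other fed arrays, from 0.08 to 0.48 in P2, from -0.06 to 0.14 in P3 and from -0.02 to 0.16 in P3r2. The fed values thus lay below all the others even without fed 2, and P2 did not overlap with fed in any complex. Fed 2, P2 4 and P3 3 also had the narrowest spread of values over the array (SD 2.16, 2.18 and 2.22 log2 units, against 2.25 to 2.39 in the others), and results are given with and without these 3 arrays where they matter. For the tissue's own markers, the summed level of 8 measured hepatocyte markers of 10 lay between 15.52 and 15.85 log2 units on every array. The brightest markers weigh most in such a sum. Alb had group means of 13.11 to 13.51, near the highest value of all rows, 13.63, so the sum is a weak check of hepatocyte content. Single markers moved beneath that sum: in P3 against fed Tat rose by 1.28 and Ttr fell by 0.80. The summed level of 7 stellate cell and fibroblast markers of 8 was 10.37 to 11.04 in fed, 9.54 to 10.10 in P2, 10.17 to 11.71 in P3 and 9.84 to 10.47 in P3r2, and its members moved apart: in P3 against fed Dcn rose by 3.80 while Col3a1 fell by 1.65, Lrat by 1.28 and Pdgfrb by 1.22. The 9 measured macrophage markers of 10 summed to 10.54 to 11.62 in fed, 11.43 to 11.73 in P2, 11.12 to 11.80 in P3 and 10.82 to 11.36 in P3r2. In P3 against fed 2 of the 9 were called, C1qb and C1qc, which rose by 0.89 and 0.79. The 9 differences had a median of 0.11 with 5 above 0. Group means of Adgre1 and Marco were 6.75 and 6.62 in fed and 6.19 and 6.12 in P3, neither difference called. Skeletal muscle and adipose markers, 7 of 8 measured, summed to 8.62 to 9.32 in fed, 8.88 to 9.29 in P2, 7.97 to 8.35 in P3 and 9.16 to 9.32 in P3r2. Of these 7 only Cidec was called in P3 against fed, with a mean of 8.49 in fed and 6.74 in P3. The other 6 were not called, and the median difference of the 7 was -0.05. For endothelium, bile duct and erythroid cells only 2 markers each had a row and for lymphocytes 4. The part of other cell types in the results was not tested.

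**Figure D1:**
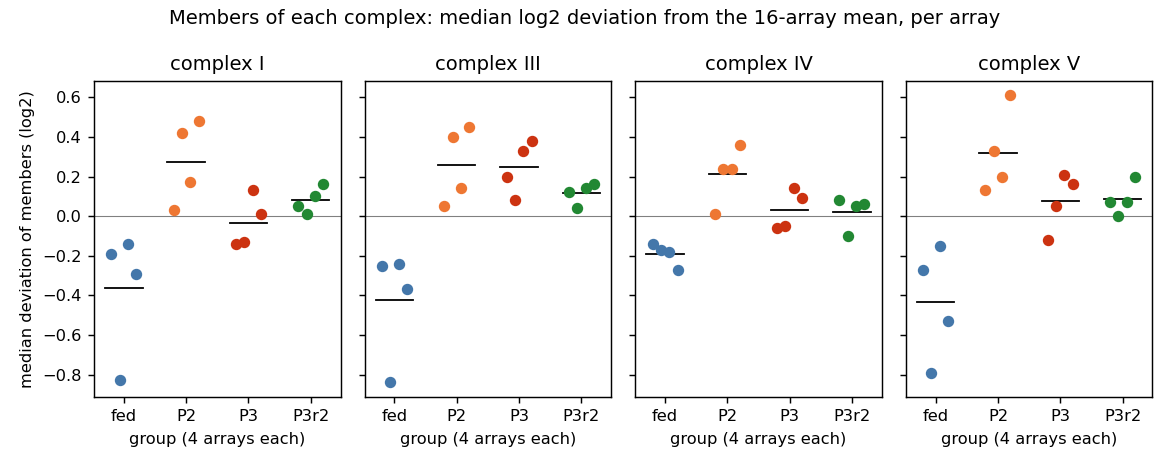
Median log2 deviation of the members of complexes I, III, IV and V from their mean over the 16 arrays (vertical axis), with 1 point per array, 4 arrays in each of the 4 groups (horizontal axis) and a line at the group mean. All fed arrays lie below all P2 arrays in each complex, and fed 2 is the lowest point of complexes I, III and V.

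At phase 2 the RNA of most members was more abundant than in fed liver. Of the 51 members, 31 rose and 1 fell, in a table in which 8.05% of all rows tested rose and 9.15% fell. The members' median difference was 0.65 log2 units, and that of all rows was 0.04. Among rows whose mean signal lay above the median row, which hold 42 of the members, 12.0% rose and 16.2% fell with a median of -0.09, and 31 of these 42 members rose with a median of 0.75. The 2 groups did not overlap in 32 members, 62.7% of them, where 22.4% of all rows did not overlap. By complex, 11 of 19 members of complex I rose and 1 fell (median 0.59), 4 of 6 rose in complex III (median 0.67), 5 of 12 in complex IV (median 0.24) and 11 of 14 in complex V (median 0.75). Without fed 2, 28 rose and 1 fell with a median of 0.52, and without the 3 arrays of narrow spread 28 rose and 1 fell with a median of 0.44.

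At phase 3 fewer members were called against fed liver, in a comparison that shares the fed arrays with that of P2. In P3, 19 of 51 rose and 0 fell, with 15.0% of all rows tested higher and 10.7% lower, and the members' median was 0.32. Among the brighter rows, those above the median row, 26.1% rose and 18.0% fell, with a median of 0.09, and the median of the 42 members among them was 0.40. P3 and fed did not overlap in 18 members (35.3%), where 24.0% of all rows did not. Complex III held the largest share, with 4 of 6 members higher (median 0.70), followed by complex V with 7 of 14 (median 0.37), complex IV with 4 of 12 (median 0.19) and complex I with 4 of 19 (median 0.31). No difference between complexes was tested. At an unadjusted p below 0.05 in limma, 1 member was lower. The count of 0 depended on fed 2: without it 16 rose and 1, Ndufs8, fell (by 0.53 log2 units), and without the 3 arrays of narrow spread 17 rose and 1 fell.

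Set directly against P2, the P3 livers had less RNA of 16 members and more of 5. Over all rows tested the balance was the other way, with 18.1% of rows higher and 11.1% lower in P3, and among the brighter rows 31.7% were higher and 17.1% lower. The groups did not overlap in 20 members (39.2%), where 26.6% of all rows did not. The members' median was -0.13 and that of the brighter rows was 0.17. Complex I carried 9 of the 16 falls (of 19 members, median -0.35), complex V 4, complex III 2 and complex IV 1. The 5 members that rose were Ndufs1, Ndufv1, Uqcrc1, Uqcrc2 and Atp5f1a. Without the 3 arrays of narrow spread 6 rose and 19 fell. When the trend of the differences with gene length was taken out over the brighter rows, 9 rose and 11 fell among 42 members, where 35.6% of the rows in that fit were higher and 16.5% lower.

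After 2 days of re-feeding the members were as a group close to their phase 3 values, with 6 of 51 higher and 3 lower than in P3 and a median of 0.04. Over all rows tested 14.0% were higher and 10.6% lower, and over the brighter rows 23.9% and 17.3%. The groups did not overlap in 14 members, where 27.8% of all rows did not. This balance depended on the scaling: after quantile normalization 3 members were higher and 11 lower with a median of -0.10, and after centring of each array on its median 4 were higher and 4 lower. The balance of all rows moved too, to 13.3% higher and 14.5% lower after quantile normalization and to 13.5% and 13.1% after centring. Against fed, 12 of 51 members were higher and 0 lower in P3r2, with a median of 0.47, where 3.61% of all rows were higher and 0.76% lower, and 6.47% and 1.16% of the brighter rows (median 0.16). At an unadjusted p below 0.05 in limma, 36 were higher and 0 lower, a threshold at which no share of all rows is given here. After quantile normalization 6 members were higher, and the balance over all rows became 1.72% higher and 1.53% lower. The count also moved with single arrays: it was 2 without fed 2, 4 without fed 4, 1 without P3r2 1, 3 without P3r2 2, 1 without P3r2 3 and 4 without P3r2 4. In these fits the share of all rows called higher lay between 1.58% and 2.93%. The groups did not overlap in 30 members (58.8%, against 15.1% of all rows), and 48 of the 51 differences were above 0. Over all 13947 rows tested 8062 differences were above 0, and over the 6974 brighter rows 4920. Against P2, 4 members were higher and 10 lower in P3r2, with 15.6% of all rows higher and 5.68% lower, and 27.8% and 6.18% of the brighter rows. The members' median was -0.18, and that of the brighter rows 0.26. These groups did not overlap in 21 members, where 28.8% of all rows did not. Those 10 became 5 without P2 2, 1 without P2 4, 5 without P3r2 1, 4 without P3r2 2, 3 without P3r2 3, and 1 when the spread of each array was a covariate. In these fits the share of all rows called lower lay between 2.55% and 3.52%. After quantile normalization 5 members were higher and 15 lower, with 10.6% of all rows higher and 9.29% lower.

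Over the 4 groups together, 38 of the 51 members differed by the moderated F test of limma (adjusted p below 0.05), where 41.6% of all rows did. They were 15 of 19 in complex I, 6 of 6 in complex III, 5 of 12 in complex IV and 12 of 14 in complex V. The other 13 included all 9 members whose mean signal lay below the median row. In those dim rows a difference can go unseen, and the single call among them in any comparison was Ndufa5 in P3r2 against P3.

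**Figure D2:**
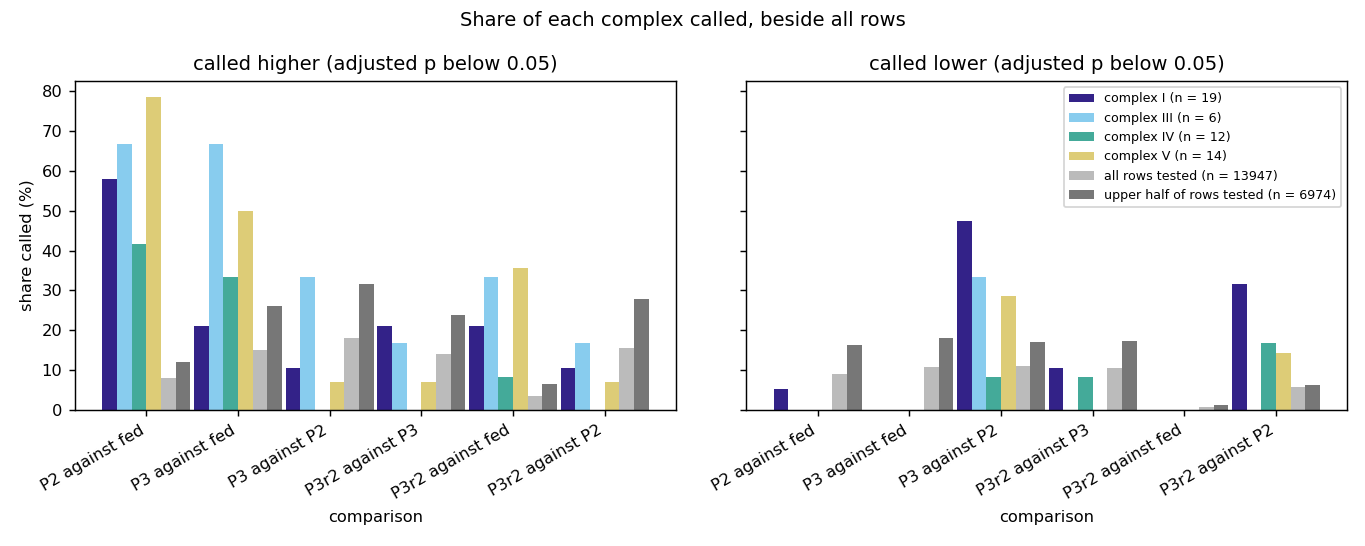
Share of members (vertical axis, percent) called higher on the left and lower on the right in each of 6 comparisons (horizontal axis), by complex, with all 13947 rows tested in light grey and the 6974 rows above the median row in dark grey. In P2 against fed 78.6% of complex V and 57.9% of complex I rose, and in P3 against P2 47.4% of complex I fell.

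Complex I is built from a peripheral arm, which binds NADH and holds the iron-sulphur clusters, and a membrane arm, which pumps protons. Its catalytic core subunits did not move as a block. Ndufs1, the largest iron-sulphur subunit of the peripheral arm, was the only member called lower in P2. After quantile normalization Atp5f1a (-0.27) and Ndufs5 (-0.40) were called lower too. The log2 signals of Ndufs1 were 10.03, 9.76, 9.82 and 10.10 in fed, 9.45, 9.04, 9.22 and 8.37 in P2, 10.47, 10.31, 9.43 and 10.35 in P3 and 10.39, 10.41, 10.29 and 10.28 in P3r2. All P2 arrays lay below all fed arrays, and 3 of the 4 P3 arrays lay above them, with P3 3 alone below. Ndufs1 fell by 0.91 ± 0.23 (adjusted p = 0.0144) in P2 and was 1.12 ± 0.23 (adjusted p = 0.00147) higher in P3 than in P2, and in P3 it stood at 0.21 ± 0.23 (adjusted p = 0.593) from fed. In P3r2 it was 1.32 ± 0.23 (adjusted p = 0.00127) above P2. Without the 3 arrays of narrow spread it was called higher in P3 than in fed as well (0.39, adjusted p = 0.0236 in limma).

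Ndufv1, which carries the flavin that accepts electrons from NADH, followed another course. Its log2 signals were 10.15, 9.73, 10.23 and 10.11 in fed, 10.35, 10.40, 10.18 and 10.12 in P2, 10.93, 10.73, 10.88 and 10.91 in P3 and 10.37, 10.41, 10.51 and 10.39 in P3r2. The 4 P3 arrays lay above all 12 others. It stood at 0.21 ± 0.11 (adjusted p = 0.199) in P2, rose by 0.81 ± 0.11 (adjusted p = 4.89e-05) in P3 against fed and by 0.60 ± 0.11 (adjusted p = 0.000695) against P2, and fell by 0.45 ± 0.11 (adjusted p = 0.00675) on re-feeding. Ndufv2, its partner at the NADH site, read 8.83, 8.39, 9.04 and 8.86 in fed, 9.26, 9.46, 9.37 and 9.63 in P2, 9.09, 8.85, 9.24 and 9.15 in P3 and 9.64, 9.49, 9.61 and 9.70 in P3r2. It rose by 0.65 ± 0.13 (adjusted p = 0.0048) in P2, stood at 0.30 ± 0.13 (adjusted p = 0.118) in P3, and was 0.53 ± 0.13 (adjusted p = 0.00796) higher in P3r2 than in P3. At 0.83 ± 0.13 (adjusted p = 0.00266) above fed in P3r2, it was the one member whose call against fed after re-feeding held in all 29 alternative settings. Ndufv1 and Ndufv2 therefore ranked the 4 groups differently, with P3 highest for the first and P3r2 and P2 highest for the second.

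Ndufs8 and Ndufs7 carry iron-sulphur clusters near the site where ubiquinone is reduced. Ndufs8 read 8.92, 8.30, 9.08 and 8.75 in fed, 9.11, 9.48, 9.18 and 9.59 in P2, 8.16, 8.44, 8.62 and 8.33 in P3 and 9.27, 9.22, 9.41 and 9.50 in P3r2. Its P3 arrays lay below all P2 and all P3r2 arrays and overlapped with fed only through fed 2. It rose by 0.58 ± 0.16 (adjusted p = 0.0246) in P2, a call that was lost without fed 2, fed 4, P2 2 or P2 4 (adjusted p 0.0527 to 0.0831) in limma. It fell by 0.95 ± 0.16 (adjusted p = 0.000368) from P2 to P3 and rose by 0.97 ± 0.16 (adjusted p = 0.000345) on re-feeding. Ndufs7 read 9.89, 9.79, 9.87 and 9.58 in fed, 10.22, 10.58, 10.35 and 10.34 in P2, 10.22, 10.51, 10.53 and 10.42 in P3 and 10.23, 10.04, 10.19 and 10.36 in P3r2. The fed arrays did not overlap with any other group, and it rose by 0.59 ± 0.11 (adjusted p = 0.00292) in P2 and 0.63 ± 0.11 (adjusted p = 0.000441) in P3. In P3r2 it was 0.42 ± 0.11 (adjusted p = 0.0429) above fed, a call lost without any fed array, P2 3, P3 4 or any P3r2 array (adjusted p 0.0518 to 0.112).

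The beta module is used here as a label for the 7 measured Ndufb and Ndufc subunits of the membrane arm. They were grouped by name and not by their position in the arm. In P2, 5 of the 7 rose (median 1.02), beside 8.05% of all rows. From P2 to P3, 6 of the 7 fell (median -0.62), beside 11.1% of all rows. Ndufb8 read 8.16, 7.52, 8.24 and 7.63 in fed, 8.86, 9.20, 9.12 and 9.57 in P2, 7.92, 8.28, 8.58 and 8.27 in P3 and 8.42, 8.49, 8.18 and 8.77 in P3r2. All P2 arrays lay above all arrays of the other groups. It rose by 1.30 ± 0.20 (adjusted p = 0.000786) in P2, fell by 0.93 ± 0.20 (adjusted p = 0.00215) from P2 to P3, and was 0.38 ± 0.20 (adjusted p = 0.203) from fed in P3. Ndufb2 rose by 1.22 ± 0.20 (adjusted p = 0.00129) and fell by 0.90 ± 0.20 (adjusted p = 0.00277) in these comparisons, and Ndufb7 by 1.05 ± 0.18 (adjusted p = 0.00162) and 0.69 ± 0.18 (adjusted p = 0.00809). Ndufb11 and Ndufc2 rose by 1.02 ± 0.19 (adjusted p = 0.0029) and 0.99 ± 0.15 (adjusted p = 0.000769) in P2. Their falls to P3 were smaller, 0.53 ± 0.19 and 0.48 ± 0.15. The fall of Ndufb11 was lost without fed 4, P2 2, P2 3, P2 4, P3 1, P3 2, P3 4 or any P3r2 array (adjusted p 0.0561 to 0.147), and that of Ndufc2 without P2 2, P2 4 or P3 1 (adjusted p 0.054 to 0.0854). Ndufb10 fell by 0.62 ± 0.19 (adjusted p = 0.0197), a call lost without P2 2, P2 4 or P3 4 (adjusted p 0.053 to 0.0616). Ndufc2 was also 0.51 ± 0.15 (adjusted p = 0.0192) above fed in P3, a call lost without fed 2, P3 3 or P3 4 (adjusted p 0.0577 to 0.062). Ndufb10 was 0.53 ± 0.19 (adjusted p = 0.0592) from fed in P2 and rose by 0.55 ± 0.19 (adjusted p = 0.0398) on re-feeding, a call lost without P3 1, P3 3, P3 4, P3r2 3 or P3r2 4 (adjusted p 0.0657 to 0.126), and Ndufb4, a dim row, was called in no comparison.

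In P3r2, 5 of the 7 beta module subunits were still lower than in P2 (median -0.55, beside 5.68% of all rows), Ndufb8 by 0.73 ± 0.20 (adjusted p = 0.0183) and Ndufb11 by 0.62 ± 0.19 (adjusted p = 0.0324). The call of Ndufb8 was lost without P2 4 or P3r2 3 (adjusted p 0.0642 to 0.065), and that of Ndufb11 without P2 2, P2 4, P3r2 1, P3r2 2 or P3r2 3 (adjusted p 0.0657 to 0.106). The other 3 calls, of Ndufb2, Ndufb7 and Ndufc2, were lost without P2 4 too, and all 5 were lost when the array's spread was a covariate. Against fed, all 7 differences in P3r2 were above 0, between 0.11 and 0.62. In limma 0 of them were called, and 5 had an unadjusted p below 0.05, a threshold at which no share of all rows is given here.

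Among the other accessory subunits, Ndufa6, a small subunit of the peripheral arm, had the largest fall of complex I from P2 to P3. It read 5.38, 4.55, 5.11 and 5.26 in fed, 5.97, 6.24, 6.18 and 6.52 in P2, 5.36, 4.98, 5.0 and 5.32 in P3 and 5.52, 5.59, 5.48 and 5.83 in P3r2, with P2 above every other array. It rose by 1.15 ± 0.17 (adjusted p = 0.000715) in P2, fell by 1.06 ± 0.17 (adjusted p = 0.000247) to P3, and stood at 0.09 ± 0.17 (adjusted p = 0.797) from fed in P3. In P3r2 it was 0.62 ± 0.17 (adjusted p = 0.0191) lower than in P2, a call lost without P2 4, P3r2 1 or P3r2 3 (adjusted p 0.0538 to 0.0666). Ndufs4, an accessory subunit of the peripheral arm, read 8.12, 7.56, 8.40 and 7.93 in fed, 8.58, 9.0, 8.59 and 9.37 in P2, 8.57, 8.72, 9.23 and 9.01 in P3 and 8.98, 8.70, 8.86 and 8.97 in P3r2. It was higher than fed by 0.88 ± 0.20 (adjusted p = 0.00932) in P2, 0.88 ± 0.20 (adjusted p = 0.004) in P3 and 0.88 ± 0.20 (adjusted p = 0.0242) in P3r2, and the 3 group means were all 8.88. The P3r2 call was lost without fed 2, fed 4, P3r2 1, P3r2 3 or P3r2 4 (adjusted p 0.0542 to 0.0755).

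Ndufv3, a small subunit bound near the NADH site, was the one member whose called differences all favoured the re-fed group. It read 7.92, 7.53, 8.0 and 7.99 in fed, 7.55, 7.53, 7.78 and 7.55 in P2, 8.08, 7.84, 7.24 and 8.20 in P3 and 8.57, 8.67, 8.77 and 8.44 in P3r2, and the P3r2 arrays lay above all others. It was 0.77 ± 0.18 (adjusted p = 0.0039) above P3, 1.01 ± 0.18 (adjusted p = 0.00138) above P2 and 0.75 ± 0.18 (adjusted p = 0.025) above fed, the last not called without fed 2, P3r2 1, P3r2 2 or P3r2 3 (adjusted p 0.0616 to 0.0871). In P2 and P3 it stood at -0.26 ± 0.18 and -0.02 ± 0.18 from fed. Ndufa11, an accessory subunit of the membrane arm, rose by 0.47 ± 0.10 (adjusted p = 0.00459) in P2 and fell by 0.34 ± 0.10 (adjusted p = 0.0144) to P3. Neither call held when the trend with gene length was removed (adjusted p 0.259 and 0.585). Ndufa5, a dim row, read 5.26, 4.17, 4.75 and 4.47 in fed, 4.75, 5.33, 5.14 and 4.91 in P2, 4.89, 5.33, 5.81 and 4.87 in P3 and 4.42, 4.60, 4.59 and 4.55 in P3r2, and its fall of 0.68 ± 0.23 (adjusted p = 0.039) on re-feeding was lost without P3 2, P3 3 or any P3r2 array (adjusted p 0.0665 to 0.127). Ndufa7 and Ndufs5 were called in no comparison.

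In complex III the 6 members followed several courses. Uqcrc1 and Uqcrc2 are the large core proteins on the matrix side, and Uqcrfs1 is the Rieske iron-sulphur protein that takes electrons from ubiquinol. Uqcrc1 read 9.01, 8.41, 8.98 and 8.98 in fed, 9.15, 9.24, 9.27 and 8.67 in P2, 9.74, 9.57, 9.84 and 9.74 in P3 and 9.45, 9.54, 9.58 and 9.41 in P3r2. The P3 and P3r2 arrays all lay above all fed and P2 arrays, which overlapped with each other. It stood at 0.24 ± 0.15 (adjusted p = 0.288) in P2, rose by 0.88 ± 0.15 (adjusted p = 0.000365) in P3 against fed and by 0.64 ± 0.15 (adjusted p = 0.0041) against P2, and was 0.65 ± 0.15 (adjusted p = 0.0238) above fed in P3r2. That last call was lost without fed 2, P3r2 1, P3r2 2 or P3r2 3 (adjusted p 0.0573 to 0.08). Uqcrc2 read 10.00, 9.43, 9.92 and 10.07 in fed, 9.94, 10.04, 10.02 and 9.87 in P2, 10.51, 10.28, 10.25 and 10.48 in P3 and 10.41, 10.48, 10.41 and 10.24 in P3r2, with P3 and P3r2 above fed and P2. It stood at 0.11 ± 0.13 (adjusted p = 0.564) in P2 and rose by 0.53 ± 0.13 (adjusted p = 0.00504) in P3. Its rise from P2 to P3 of 0.42 ± 0.13 (adjusted p = 0.0206) was lost without P2 4, P3 1 or P3 4 (adjusted p 0.0559 to 0.0634). In P3r2 it was 0.53 ± 0.13 (adjusted p = 0.0264) above fed, a call lost without P3r2 1, P3r2 2 or P3r2 3 (adjusted p 0.0724 to 0.0816), and 0.42 ± 0.13 (adjusted p = 0.0274) above P2, a call lost without P2 1, P2 4, P3r2 1, P3r2 2 or P3r2 3 (adjusted p 0.0537 to 0.0794).

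Uqcrfs1 was high in both phases. It read 8.90, 7.55, 9.03 and 8.61 in fed, 9.37, 9.76, 9.69 and 10.25 in P2, 9.39, 9.48, 10.20 and 10.01 in P3 and 9.34, 9.22, 9.36 and 9.56 in P3r2, and no P2 or P3 array overlapped with fed. It rose by 1.24 ± 0.28 (adjusted p = 0.00859) in P2 and by 1.24 ± 0.28 (adjusted p = 0.0036) in P3, and P3 stood at 0.00 ± 0.28 (adjusted p = 0.999) from P2. Of the small subunits, Uqcrq, which lies next to cytochrome b, read 9.17, 8.54, 9.30 and 8.93 in fed, 9.54, 9.78, 9.83 and 10.25 in P2, 8.84, 9.10, 9.24 and 8.96 in P3 and 9.51, 9.38, 9.55 and 9.68 in P3r2. P2 lay above all fed and P3 arrays, and only P2 1, at 9.54, lay within the P3r2 range. It rose by 0.86 ± 0.17 (adjusted p = 0.00364) in P2 and fell by 0.82 ± 0.17 (adjusted p = 0.00169) to P3, where it was 0.05 ± 0.17 (adjusted p = 0.897) from fed. Its rise of 0.50 ± 0.17 (adjusted p = 0.0414) on re-feeding was lost in 15 of 29 alternative settings, among them without fed 4, P2 2, P2 3, P3 1, P3 2, P3 4, P3r2 1, P3r2 3 or P3r2 4 (adjusted p 0.0505 to 0.11). Uqcr11 rose by 0.55 ± 0.12 (adjusted p = 0.00857) in P2 and fell by 0.45 ± 0.12 (adjusted p = 0.0128) to P3, both calls that were lost when the trend with gene length was removed (adjusted p 0.127 and 0.186). Uqcrh, the acidic hinge protein at the cytochrome c side, read 10.08, 9.28, 10.14 and 10.00 in fed, 10.56, 10.81, 10.53 and 10.78 in P2, 10.76, 10.43, 11.00 and 10.83 in P3 and 10.14, 10.19, 10.30 and 10.44 in P3r2. It rose by 0.79 ± 0.17 (adjusted p = 0.00686) in P2 and by 0.88 ± 0.17 (adjusted p = 0.0012) in P3, and P3 stood at 0.08 ± 0.17 (adjusted p = 0.765) from P2. On re-feeding it stood at -0.49 ± 0.17 (adjusted p = 0.0528) from P3, a difference called in 11 of 29 alternative settings.

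**Figure D3:**
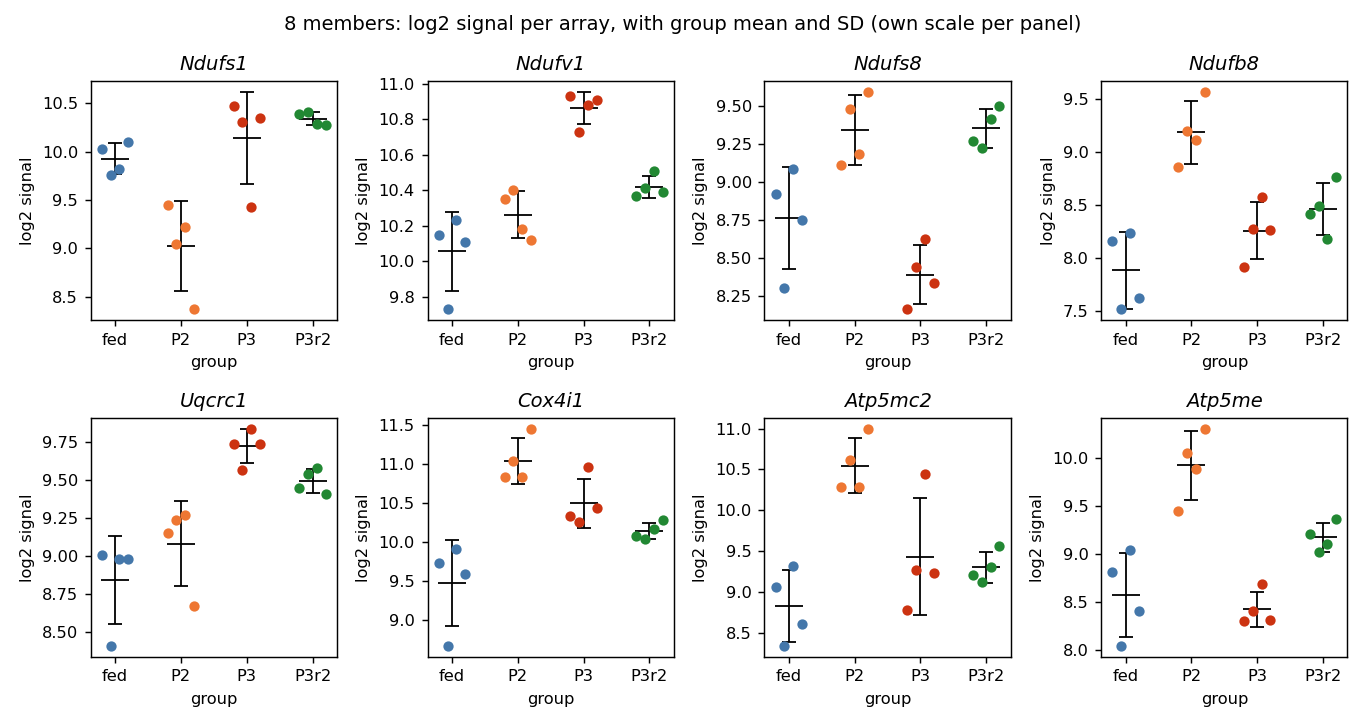
Log2 signal (vertical axis, a scale of its own per panel) of Ndufs1, Ndufv1, Ndufs8, Ndufb8, Uqcrc1, Cox4i1, Atp5mc2 and Atp5me on each of the 16 arrays, by group (horizontal axis), with the mean and SD of 4 arrays. P2 is lowest for Ndufs1 and highest for Ndufb8, Cox4i1, Atp5mc2 and Atp5me by group mean, and P3 is highest for Ndufv1 and Uqcrc1.

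Complex IV combined ubiquitous subunits, 5 of which rose in P2, with isoforms of other tissues, of which 0 were called. Cox4i1, the liver form of subunit 4, read 9.73, 8.66, 9.91 and 9.59 in fed, 10.83, 11.04, 10.83 and 11.46 in P2, 10.33, 10.26, 10.96 and 10.44 in P3 and 10.08, 10.04, 10.16 and 10.28 in P3r2. The fed arrays lay below all others. It rose by 1.57 ± 0.23 (adjusted p = 0.000741) in P2, a 2.97-fold difference, and by 1.02 ± 0.23 (adjusted p = 0.00384) in P3, and stood at 0.67 ± 0.23 (adjusted p = 0.131) in P3r2. In P3r2 it was 0.90 ± 0.23 (adjusted p = 0.0147) lower than in P2, a call lost without P2 4 (adjusted p = 0.054). Cox5b, a zinc-binding subunit, rose by 1.15 ± 0.23 (adjusted p = 0.00442) in P2. Its difference from fed of 0.70 ± 0.23 (adjusted p = 0.037) in P3 was lost without fed 2, fed 4, P3 1, P3 3 or P3 4 (adjusted p 0.0516 to 0.106) and was 0.44 without fed 2. That of 0.90 ± 0.23 (adjusted p = 0.0392) in P3r2 was lost without fed 2, fed 4, P2 2, P2 3 or any P3r2 array (adjusted p 0.051 to 0.106).

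Cox6a1, the form of subunit 6a outside heart and skeletal muscle, rose by 0.48 ± 0.12 (adjusted p = 0.0124) in P2 and 0.57 ± 0.12 (adjusted p = 0.00164) in P3. Its P2 call was lost when the trend with gene length was removed (adjusted p = 0.372). Cox7a2l, which helps join complex III and complex IV into supercomplexes, read 6.35, 6.15, 6.71 and 6.68 in fed, 6.97, 7.44, 7.36 and 7.56 in P2, 7.34, 7.29, 7.62 and 7.54 in P3 and 6.77, 6.70, 6.83 and 6.88 in P3r2. P2 and P3 lay above fed and P3r2 with no overlap. It rose by 0.86 ± 0.15 (adjusted p = 0.0016) in P2 and 0.98 ± 0.15 (adjusted p = 0.000108) in P3, and fell by 0.66 ± 0.15 (adjusted p = 0.00323) on re-feeding, to 0.32 ± 0.15 (adjusted p = 0.261) from fed. It was 0.54 ± 0.15 (adjusted p = 0.0173) lower in P3r2 than in P2, a call lost without P2 4 or P3r2 2 (adjusted p 0.0539 to 0.06). Cox6c fell by 0.45 ± 0.10 (adjusted p = 0.00242) from P2 to P3 and was not called against fed, at 0.25 ± 0.10 in P2 and -0.20 ± 0.10 in P3.

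Cox7b, a small subunit needed for assembly, read 6.99, 3.68, 7.08 and 6.52 in fed, 6.92, 7.90, 7.80 and 8.50 in P2, 6.95, 6.38, 6.75 and 6.55 in P3 and 7.53, 7.48, 7.95 and 7.27 in P3r2. Fed 2, at 3.68, lay far below every other array, and P2 1 lay within the range of the other fed arrays. Its rise of 1.72 ± 0.56 (adjusted p = 0.0483) in P2 became 0.92 without fed 2 (adjusted p = 0.0401). It was lost in 18 of 29 alternative settings, among them without fed 4, P2 2, P2 3, P2 4, P3 1, P3 2, P3 4 or any P3r2 array (adjusted p 0.0552 to 0.141). The isoforms that belong to other tissues were called in none of the 6 comparisons in limma, and 0 of these 5 had an unadjusted p below 0.05 in any of them: Cox4i2 of lung, Cox6a2 and Cox8b of heart and skeletal muscle, and Cox6b2 and Cox8c of testis. Their differences from fed lay between -0.16 and 0.23 in P2, between -0.14 and 0.19 in P3 and between 0.03 and 0.21 in P3r2. All but Cox6b2 were dim rows, as was the pseudogene Cox6c-ps1. Cox6a2 read 3.06 in P2 4 and 5.03 in P3 3, both arrays of narrow spread, and without the 3 such arrays it was lower in P3 than in P2 by 0.63 (adjusted p = 0.0104 in limma), where all 16 arrays gave 0.02 ± 0.32.

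Complex V joins the F1 head, where ATP is made, to a ring of c subunits in the membrane, with a peripheral stalk holding the head still. Atp5mc2, 1 of the genes for the c subunit, read 9.06, 8.34, 9.32 and 8.61 in fed, 10.28, 10.62, 10.29 and 11.00 in P2, 8.78, 9.27, 10.45 and 9.23 in P3 and 9.21, 9.12, 9.31 and 9.56 in P3r2. The P2 arrays lay above all fed and P3r2 arrays, and P3 3, at 10.45, lay within the P2 range while the other P3 arrays did not. It rose by 1.72 ± 0.30 (adjusted p = 0.00187) in P2, 3.29-fold and among the largest rises of the members. It was 1.12 ± 0.30 (adjusted p = 0.0101) lower in P3 than in P2 and 1.25 ± 0.30 (adjusted p = 0.00905) lower in P3r2 than in P2, and stood at 0.60 ± 0.30 (adjusted p = 0.172) from fed in P3. Atp5mc3, another gene for the same mature protein, read 10.92, 10.26, 10.79 and 10.54 in fed, 11.15, 11.41, 11.00 and 11.57 in P2, 11.12, 11.26, 11.73 and 11.40 in P3 and 10.98, 10.91, 10.96 and 11.21 in P3r2. It rose by 0.66 ± 0.17 (adjusted p = 0.0159) in P2, a call lost without P2 4 (adjusted p = 0.0586), and by 0.75 ± 0.17 (adjusted p = 0.00313) in P3, with 0.09 ± 0.17 (adjusted p = 0.725) between P3 and P2.

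Atp5me, a small subunit of the membrane part, had the largest fall of all members from P2 to P3. It read 8.81, 8.04, 9.04 and 8.40 in fed, 9.45, 10.06, 9.89 and 10.31 in P2, 8.30, 8.40, 8.69 and 8.31 in P3 and 9.21, 9.02, 9.10 and 9.37 in P3r2, and P2 lay above all fed, P3 and P3r2 arrays. It rose by 1.36 ± 0.21 (adjusted p = 0.000791) in P2, fell by 1.5 ± 0.21 (adjusted p = 6.3e-05) to P3, where it stood at -0.15 ± 0.21 (adjusted p = 0.707) from fed, and rose by 0.75 ± 0.21 (adjusted p = 0.0132) on re-feeding. It was then still 0.75 ± 0.21 (adjusted p = 0.0187) lower than in P2, a call lost without P2 2, P2 4, P3r2 2 or P3r2 3 (adjusted p 0.0503 to 0.0663). Atp5mg rose by 0.79 ± 0.24 (adjusted p = 0.0375) in P2, a call lost in 12 of 29 settings, among them without fed 2, fed 3, fed 4, P2 2, P2 3 or P2 4 (adjusted p 0.0504 to 0.12). Atp5mf, a dim row, was called in no comparison. In the peripheral stalk all 3 measured subunits rose in P2. Atp5po, which ties the stalk to the head, read 9.30, 8.32, 9.48 and 8.97 in fed, 10.13, 10.41, 10.02 and 10.75 in P2, 9.64, 9.77, 10.46 and 10.02 in P3 and 9.86, 9.87, 9.95 and 10.34 in P3r2. The fed arrays lay below all others, and it rose by 1.32 ± 0.24 (adjusted p = 0.00259) in P2 and 0.96 ± 0.24 (adjusted p = 0.00733) in P3 and was 0.99 ± 0.24 (adjusted p = 0.0312) above fed in P3r2. The P3r2 call was lost without fed 2, fed 4 or any P3r2 array (adjusted p 0.0601 to 0.0877). Atp5pb rose by 0.78 ± 0.14 (adjusted p = 0.00255) and 0.66 ± 0.14 (adjusted p = 0.00262) in P2 and P3, and Atp5pf by 0.72 ± 0.15 (adjusted p = 0.00449) in P2 and then fell by 0.56 ± 0.15 (adjusted p = 0.00912) to P3. In P3r2 Atp5pb was 0.57 ± 0.14 (adjusted p = 0.0358) above fed, a call lost without fed 1, fed 2, fed 4 or any P3r2 array (adjusted p 0.0597 to 0.113). Atp5pf was 0.54 ± 0.15 (adjusted p = 0.0483) above fed, lost without fed 1, fed 2, fed 4, P2 2, P2 3, P3 1, P3 2, P3 4 or any P3r2 array (adjusted p 0.0538 to 0.14).

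Promoters of 46 members were found in RefSeq (assembly GRCr8), each with 250 bases before and 50 after 1 start that the RefSeq promoter table gives. That start is the outer end of the gene in the RefSeq gene table for 31 of the 46 and lies inside the gene for 15. Among those shown here it lies 2621 bases inside for Atp5mc2 and 72 for Atp5me. Of these, 6 held GCGCATGCG, a core form of the site of nuclear respiratory factor 1, on either strand (13.0%, against 1.52% of 33469 promoters and 2.40% of the 11849 promoters of genes with a row on the array). The core is nearly a palindrome, so overlapping matches on both strands were counted as 1 promoter. The 6 were Atp5mc2, Atp5me, Atp5po, Atp5mg, Ndufa11 and Uqcrc1, and 4 of them belong to complex V, among its 14 promoters. They include the 3 members of complex V with the largest rises in P2, which was noticed after the values were seen, and Uqcrc1, which rose in P3 and was not called in P2. Windows of 150 bases from 5 of them are shown so that the match can be seen beside those values, in lower case with the match in capitals.
Atp5mc2 (chr7:135678169-135678318, minus strand): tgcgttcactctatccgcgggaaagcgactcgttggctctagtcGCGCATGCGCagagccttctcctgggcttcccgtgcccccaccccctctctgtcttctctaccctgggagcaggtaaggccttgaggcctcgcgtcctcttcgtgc
Atp5me (chr14:1464760-1464909, plus strand): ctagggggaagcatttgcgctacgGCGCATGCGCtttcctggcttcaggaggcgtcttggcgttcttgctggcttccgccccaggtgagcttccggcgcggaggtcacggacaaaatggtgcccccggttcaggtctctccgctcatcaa
Atp5po (chr11:44657434-44657583, minus strand): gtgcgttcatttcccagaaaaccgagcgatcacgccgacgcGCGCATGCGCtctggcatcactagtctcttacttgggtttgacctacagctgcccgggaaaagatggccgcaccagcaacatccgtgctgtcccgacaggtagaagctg
Ndufa11 (chr9:1637514-1637663, plus strand): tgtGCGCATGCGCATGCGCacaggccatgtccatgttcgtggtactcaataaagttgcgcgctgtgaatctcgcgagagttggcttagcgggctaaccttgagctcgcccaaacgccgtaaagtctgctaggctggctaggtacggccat
Uqcrc1 (chr8:118468123-118468272, plus strand): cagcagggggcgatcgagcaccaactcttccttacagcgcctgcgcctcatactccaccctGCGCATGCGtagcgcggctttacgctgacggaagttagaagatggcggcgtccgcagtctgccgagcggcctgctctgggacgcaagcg
The ETS site CCGGAAGT, of the family of GA-binding protein, was found in 6 of 46 promoters (13.0%, against 3.81% of all promoters and 5.44% of those on the array), those of Atp5f1a, Cox5b, Ndufb7, Ndufs1, Uqcrh and Uqcrq. The oestrogen-related receptor site TGACCTTG was found in 2 (4.35%, against 1.52% and 1.16%), Atp5mc3 and Ndufs5. These are matches of letters in one window and no evidence of binding, and a link of any motif to the differences was not tested.

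The 5 subunits of the F1 head did not move together. Atp5f1a, the alpha subunit, read 11.38, 11.29, 11.43 and 11.42 in fed, 11.22, 11.33, 11.17 and 10.99 in P2, 11.53, 11.58, 11.64 and 11.69 in P3 and 11.68, 11.70, 11.68 and 11.67 in P3r2. All P2 arrays but P2 2 lay below all fed arrays, and every P3 and P3r2 array lay above both groups. It stood at -0.20 ± 0.09 (adjusted p = 0.109) in P2 and was 0.44 ± 0.09 (adjusted p = 0.00113) higher in P3 and 0.50 ± 0.09 (adjusted p = 0.00114) higher in P3r2 than in P2. Atp5f1b, the catalytic beta subunit, read 11.82, 11.48, 11.84 and 11.80 in fed, 11.87, 11.94, 11.83 and 11.83 in P2, 12.07, 12.01, 12.06 and 12.11 in P3 and 12.08, 12.04, 12.03 and 11.97 in P3r2. It stood at 0.13 ± 0.09 (adjusted p = 0.314) in P2 and rose by 0.32 ± 0.09 (adjusted p = 0.012) in P3. The gamma and delta subunits Atp5f1c and Atp5f1d rose by 0.65 ± 0.11 (adjusted p = 0.00203) and 0.45 ± 0.11 (adjusted p = 0.0106) in P2 and by 0.42 ± 0.11 (adjusted p = 0.013) and 0.51 ± 0.11 (adjusted p = 0.00185) in P3. In P3r2 Atp5f1c was 0.46 ± 0.11 (adjusted p = 0.0351) and Atp5f1d 0.44 ± 0.11 (adjusted p = 0.0303) above fed. The first call was lost without fed 2, fed 4 or any P3r2 array (adjusted p 0.0583 to 0.0907), and the second without fed 1, fed 2, fed 4, P3r2 1, P3r2 3 or P3r2 4 (adjusted p 0.0636 to 0.0946). Atp5f1e, the epsilon subunit, rose by 1.1 ± 0.21 (adjusted p = 0.00319) in P2 and fell by 0.83 ± 0.21 (adjusted p = 0.00689) to P3.

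Atp5if1, the protein that blocks ATP synthase from running backwards, is no structural subunit. It read 7.25, 6.50, 7.76 and 7.14 in fed, 8.03, 8.34, 8.19 and 9.01 in P2, 7.45, 8.09, 9.52 and 8.40 in P3 and 7.74, 7.51, 7.79 and 7.79 in P3r2. P2 lay above all fed arrays, and the P3 arrays spread from 7.45 to 9.52. It rose by 1.23 ± 0.35 (adjusted p = 0.028) in P2 and 1.20 ± 0.35 (adjusted p = 0.019) in P3. The first call was lost without fed 1, fed 2, fed 4, P2 2 or P2 4 (adjusted p 0.0535 to 0.0957) and the second without fed 2 or P3 3 (adjusted p 0.0507 to 0.0628).

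**Figure D4:**
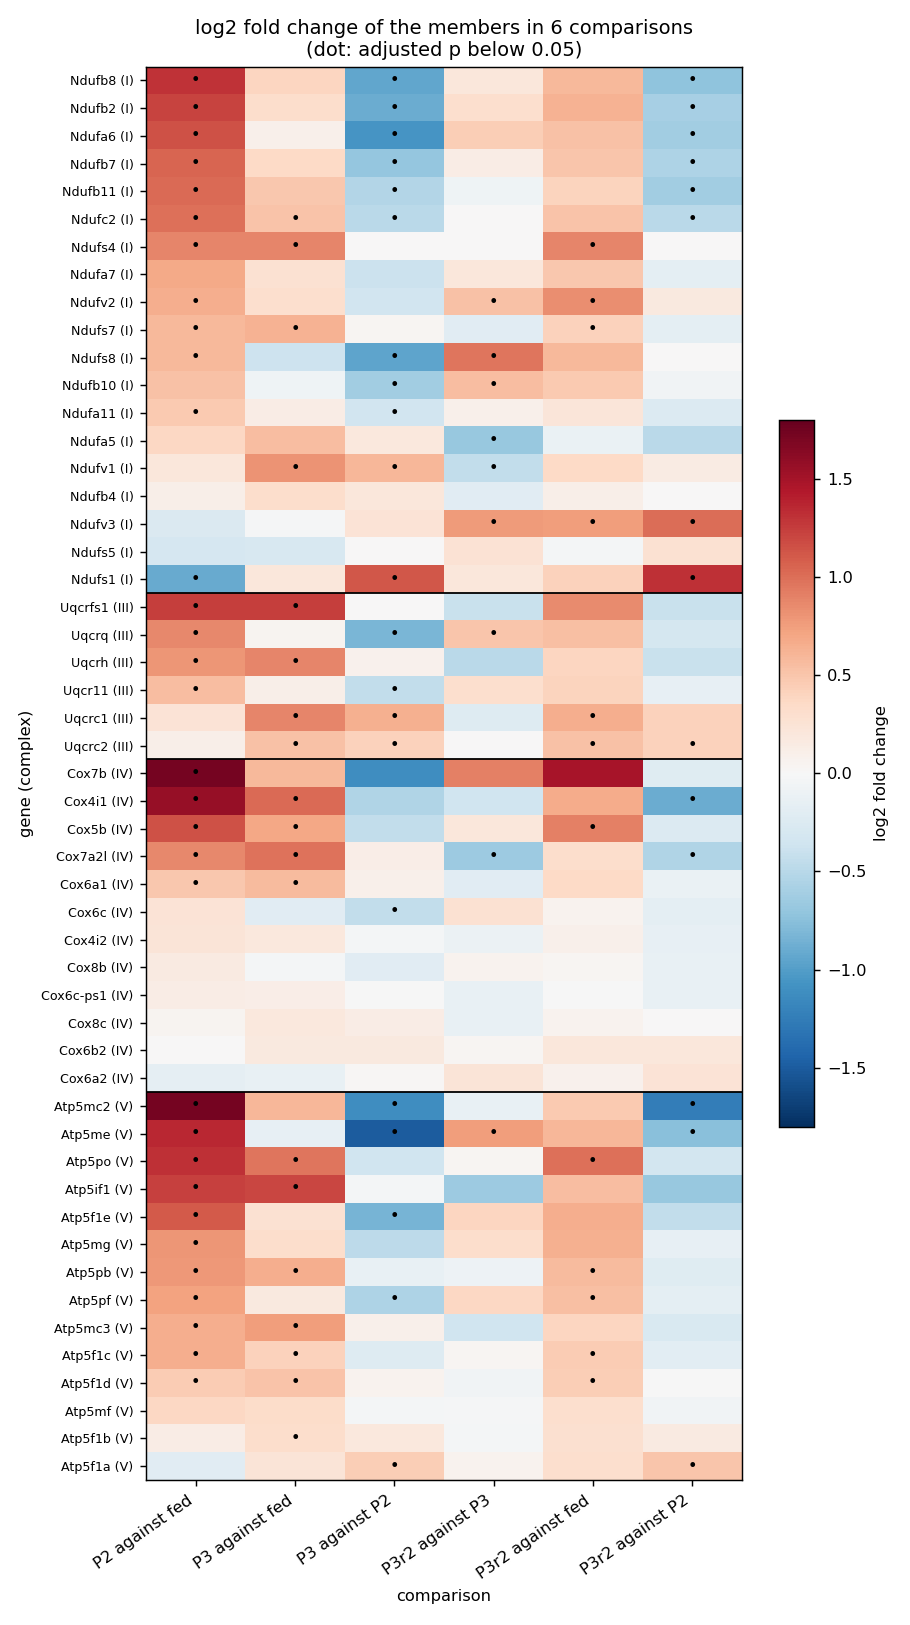
Log2 fold change (colour, red for higher and blue for lower in the group named first) of the 51 members (rows, with the complex in brackets, ordered within each complex by P2 against fed) in 6 comparisons (columns). A dot marks an adjusted p below 0.05. The first column is red for 45 of the 51 members, and in the third column, P3 against P2, 20 of the 51 differences are above 0. Over all 13947 rows tested, 7670 and 6599 differences were above 0 in these comparisons.

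Rows that name several genes were left out by the rule, since their signal cannot be given to 1 gene. Of the 3 such rows, that of Atp5pd and Atp5hl1 rose by 1.18 ± 0.30 in P2 (adjusted p = 0.0169) and was lower in P3r2 than in P2 by 0.95 ± 0.30 (adjusted p = 0.0373, lost without P2 2, P2 4, P3r2 1, P3r2 2 or P3r2 3). The row of Ndufa10 and Ndufa10l1 was 0.68 ± 0.16 higher in P3r2 than in P3 (adjusted p = 0.00498), and that of Uqcrb and a pseudogene was called in no comparison. Genes of the families with no row of their own, Cox5a and Ndufs3 among them, were not analysed here.

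The other genes of the pathway were taken as 4 lists. The shares of all rows to set beside their counts are 8.05% higher and 9.15% lower in P2 against fed, 15.0% and 10.7% in P3 against fed, 18.1% and 11.1% in P3 against P2, 14.0% and 10.6% in P3r2 against P3, and 3.61% and 0.76% in P3r2 against fed. Of complex II and the mobile carriers, a list that also holds Cyc1 and Ndufab1, 7 genes were measured, and 2 rose in P2 (median 0.30) and 3 in P3 (median 0.44). In limma 0 of the 7 were called in P3r2 against P3, 1 had an unadjusted p below 0.05 there, and 1 was higher in P3r2 than in fed. Sdhd, a membrane anchor of complex II, rose by 0.76 ± 0.14 (adjusted p = 0.00245) in P2 and fell by 0.43 ± 0.14 (adjusted p = 0.0264) to P3, the latter lost without P2 2, P2 4, P3 1 or P3 4 (adjusted p 0.0615 to 0.09). Cyc1, cytochrome c1 of complex III, rose by 0.59 ± 0.10 (adjusted p = 0.000289) in P3 and was 0.47 ± 0.10 (adjusted p = 0.00178) higher than in P2, and Sdhb, the iron-sulphur subunit of complex II, rose by 0.44 ± 0.09 (adjusted p = 0.00177) in P3. Sdha, its flavin subunit, was 0.57 ± 0.17 (adjusted p = 0.0217) higher in P3 than in P2, a call lost without P2 4, P3 1 or P3 2 (adjusted p 0.0513 to 0.0759). Ndufab1, an acyl carrier protein that is also part of complex I, rose by 0.59 ± 0.16 (adjusted p = 0.0225) in P2, lost without fed 1, fed 4, P2 2 or P2 4 (adjusted p 0.0573 to 0.0669), and by 0.57 ± 0.16 (adjusted p = 0.0147) in P3, lost without fed 1 (adjusted p = 0.0502).

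Assembly factors build the complexes without remaining in them, and 26 of the 50 listed were measured. In P2, 9 rose and 1 fell (median 0.31), in P3 9 rose and 2 fell (median 0.39), and from P2 to P3 7 rose and 9 fell (26.9% and 34.6% of the list, median -0.08). On re-feeding 8 rose and 4 fell against P3, and 7 were above fed and 0 below. At an unadjusted p below 0.05 in limma, for which no share of all rows is given, 20 were above fed and 0 below. Ndufaf4, a complex I assembly factor, read 7.46, 6.60, 7.12 and 7.16 in fed, 7.24, 6.81, 6.74 and 7.97 in P2, 9.97, 9.41, 9.96 and 10.32 in P3 and 7.90, 8.44, 8.40 and 8.66 in P3r2. The P3 arrays lay above all others, and it rose by 2.83 ± 0.27 (adjusted p = 1.5e-06) in P3 and was still 1.27 ± 0.27 (adjusted p = 0.0155) above fed after re-feeding, the latter lost without fed 2 (adjusted p = 0.0507). Coa7, a complex IV assembly factor, and Cox17, which brings copper to that complex, rose by 1.45 ± 0.21 (adjusted p = 0.000102) and 1.21 ± 0.21 (adjusted p = 0.000492) in P3. Cox17 was as high in P2, with a mean of 9.20 in fed, 10.42 in P2 and 10.41 in P3. In P2 the largest rises were those of Coa3 by 1.45 ± 0.38 (adjusted p = 0.0191), Cox14 by 1.33 ± 0.25 (adjusted p = 0.00295) and Coa8 by 1.28 ± 0.26 (adjusted p = 0.00493), all factors of complex IV. The rise of Coa3 was 0.91 without fed 2 and still called there, and its call was lost without P2 4 (adjusted p = 0.0509). Acad9, an acyl-CoA dehydrogenase that also serves complex I assembly, fell by 0.41 ± 0.13 (adjusted p = 0.0436) in P2, lost without fed 1, fed 3, fed 4, P2 2, P2 3, P2 4 or any P3r2 array (adjusted p 0.051 to 0.125), and by 0.85 ± 0.13 (adjusted p = 0.000152) in P3, and was 1.20 ± 0.13 (adjusted p = 6.4e-06) higher on re-feeding.

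Regulators of mitochondrial gene expression had most of their calls against fed in phase 3. Of 19 measured among 23 listed, 4 rose and 1 fell in P2 (median 0.06), and 11 rose and 1 fell in P3 (median 0.63). On re-feeding 2 rose and 9 fell against P3, and 2 were above fed. Ppargc1a, the co-activator PGC-1alpha, read 4.94, 4.42, 4.34 and 5.08 in fed, 5.90, 6.17, 5.39 and 5.36 in P2, 10.37, 9.98, 8.82 and 10.03 in P3 and 5.73, 5.95, 5.89 and 5.57 in P3r2. All P3 arrays lay above all others. It rose by 1.01 ± 0.29 (adjusted p = 0.0262) in P2 and by 5.10 ± 0.29 (adjusted p = 7.31e-09) in P3, fell by 4.01 ± 0.29 (adjusted p = 7.95e-08) on re-feeding to 1.09 ± 0.29 (adjusted p = 0.0423) above fed. The P2 call was lost without fed 2, fed 3, P2 1 or P2 2 (adjusted p 0.0547 to 0.0799), and the P3r2 call against fed without fed 1, fed 2, fed 3, P2 1, P2 3, P3 4 or any P3r2 array (adjusted p 0.0508 to 0.127). Esrra, the oestrogen-related receptor alpha, read 6.11, 5.89, 6.69 and 6.24 in fed, 6.76, 6.81, 6.82 and 6.76 in P2, 8.21, 7.91, 8.74 and 8.59 in P3 and 6.83, 6.89, 6.86 and 6.96 in P3r2, rose by 0.55 ± 0.17 (adjusted p = 0.0401) in P2 and 2.13 ± 0.17 (adjusted p = 3.7e-07) in P3, and fell by 1.48 ± 0.17 (adjusted p = 1.35e-05) on re-feeding. Its P2 call was lost without fed 1, fed 2, fed 4, any P2 array, P3r2 1, P3r2 2 or P3r2 3 (adjusted p 0.0524 to 0.0955).

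Tfam, which packages and transcribes mitochondrial DNA, read 7.21, 6.03, 7.26 and 7.16 in fed, 7.57, 7.95, 7.99 and 8.46 in P2, 7.84, 7.50, 8.09 and 8.02 in P3 and 7.49, 7.58, 7.67 and 7.61 in P3r2. It rose by 1.08 ± 0.24 (adjusted p = 0.00836) in P2 and 0.95 ± 0.24 (adjusted p = 0.00848) in P3. Ppargc1b, a relative of Ppargc1a, rose by 1.60 ± 0.18 (adjusted p = 7.49e-06) in P3. Lrpprc, which binds mitochondrial mRNAs together with Slirp, read 9.10, 8.60, 8.98 and 9.37 in fed, 8.82, 8.71, 8.38 and 8.04 in P2, 10.39, 9.98, 10.22 and 10.42 in P3 and 9.06, 8.94, 9.24 and 8.98 in P3r2, and Slirp read 3.84, 4.09, 3.90 and 3.90 in fed, 4.37, 4.36, 4.50 and 4.42 in P2, 3.41, 3.50, 3.56 and 3.46 in P3 and 3.96, 3.94, 4.04 and 4.29 in P3r2. Lrpprc was 1.77 ± 0.18 (adjusted p = 5.51e-06) higher in P3 than in P2 and Slirp 0.93 ± 0.09 (adjusted p = 5.16e-06) lower, so that the rows of these partners moved in opposite directions. That of Slirp is a dim row, below the median row at 5.1 log2 units. Against fed, Slirp rose by 0.48 ± 0.09 (adjusted p = 0.00382) in P2 and fell by 0.45 ± 0.09 (adjusted p = 0.00188) in P3. Nrf1, nuclear respiratory factor 1, named after its value was seen because its motif was searched, was not called in P2 against fed. Its mean was 5.52 in fed and 5.54 in P2, and it rose by 0.84 ± 0.12 (adjusted p = 8.3e-05) in P3. Polg, the polymerase that copies mitochondrial DNA, fell by 0.59 ± 0.19 (adjusted p = 0.0449) in P2, a call lost without any fed array, P2 1, P2 2, P2 4, P3 2, P3r2 1, P3r2 2 or P3r2 3 (adjusted p 0.0519 to 0.146).

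**Figure D5:**
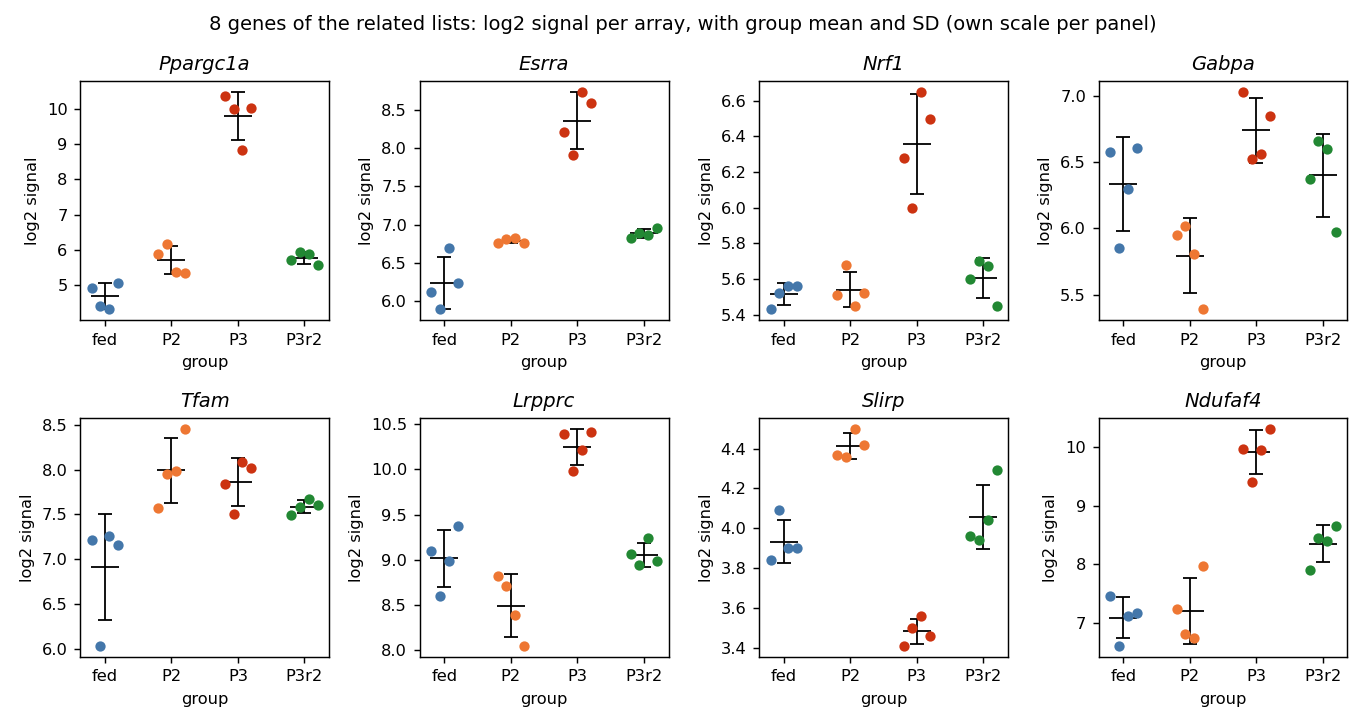
Log2 signal (vertical axis, a scale of its own per panel) of the regulators Ppargc1a, Esrra, Nrf1, Gabpa, Tfam, Lrpprc and Slirp and of the assembly factor Ndufaf4 on each of the 16 arrays, by group (horizontal axis), with the mean and SD of 4 arrays. The P3 arrays lie above all others for Ppargc1a, Esrra, Nrf1, Lrpprc and Ndufaf4 and below all others for Slirp.

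The last list held other routes of electrons to ubiquinone, with uncoupling proteins, adenine nucleotide carriers and porins, and 13 of its 16 genes were measured. In P2, 5 rose and 2 fell (38.5% and 15.4% of the list). In P3 2 rose and 1 fell, shares of 15.4% and 7.69% that are near those of all rows. On re-feeding 4 rose and 1 fell against P3, and 2 were above fed. Etfa and Etfb, which carry electrons from fatty acid oxidation, rose by 0.84 ± 0.17 (adjusted p = 0.00491) and 0.64 ± 0.11 (adjusted p = 0.00183) in P2. Etfb then fell by 0.76 ± 0.11 (adjusted p = 0.000106) to P3. Prodh2, a hydroxyproline dehydrogenase, rose by 0.83 ± 0.25 (adjusted p = 0.0345) in P2, lost without fed 2, fed 4, P2 2, P2 3 or P2 4 (adjusted p 0.0604 to 0.091), and fell by 1.42 ± 0.25 (adjusted p = 0.000489) to P3. Chdh, choline dehydrogenase, moved the other way: it fell by 1.24 ± 0.24 (adjusted p = 0.00355) in P2 and was 1.42 ± 0.24 (adjusted p = 0.000363) higher in P3 than in P2. Gpd2, which takes electrons from cytosolic glycerol phosphate, fell by 1.13 ± 0.25 (adjusted p = 0.00694) in P2 and 1.01 ± 0.25 (adjusted p = 0.00599) in P3 and was 1.00 ± 0.25 (adjusted p = 0.00656) higher on re-feeding. The porins Vdac2 and Vdac3 of the outer membrane rose by 0.85 ± 0.11 (adjusted p = 3.9e-05) and 1.36 ± 0.18 (adjusted p = 2.87e-05) in P3.

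Differences went with gene length over the array. Across the 6711 brighter rows of known length, the Spearman correlation of the difference with the gene's length was -0.40 for P2 against fed, -0.10 for P3 against fed, 0.20 for P3 against P2 and 0.33 for P3r2 against P2, and among the 51 members it was -0.04, 0.31, 0.26 and 0.15. For P3r2 against P3 and P3r2 against fed it was 0.04 and -0.13 over the rows, and -0.13 and 0.20 among the members. These are correlations across genes of the same arrays, and genes are not independent replicates. With the length trend taken out over the brighter rows, 23 of 42 members rose and 2 fell in P2 (median 0.61), where 10.9% of the rows in that fit rose and 17.2% fell. In P3, 19 rose and 1 fell (median 0.37), with 30.2% and 18.8% of the rows. In P3r2 against fed, 20 rose and 0 fell (median 0.51), with 10.8% and 1.27% of the rows. Against P2, 8 members were higher and 4 lower in P3r2, with 33.5% and 4.81% of the rows. The part of gene length in the results was not tested beyond these values.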

How the data were processed

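Liver RNA of 16 rats was hybridised to Affymetrix Rat Exon 1.0 ST arrays, and no technical replicates were made, per the labels. The authors processed the arrays with GCOS 1.4 and Expression Console 1.1, per the labels and the submitters' processing notes; the sources used here do not give their background correction, summarisation and normalization settings. The deposited values are 1 per transcript cluster and array on a log2 scale. The base of the log is read from their range, 0.84 to 13.63, and is stated in no source. They were used as deposited, with no background correction or normalization added.

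Of 19418 rows, 13947 carry a gene symbol in the platform's annotation (13327 with 1 symbol and 620 with several) and were tested. limma 3.58.1 in R 4.3.3 fitted 4 group means with 6 comparisons, and p-values were adjusted by Benjamini-Hochberg over the 13947 rows within each comparison. The comparisons share arrays: P2 against fed, P3 against fed and P3r2 against fed use the same 4 fed arrays. The script was tested on simulated data with known changes. Genes named are, for each complex and comparison, the called members ranked 1 to 3 by size in each direction, fixed core subunits and isoform families, and up to 3 called genes per direction in each of 4 related lists (complex II and carriers, assembly factors, regulators, other electron donors and uncoupling); the other members are named to account for all 51. The members and lists were chosen with earlier results of these data known. Alternatives were quantile normalization, centring of arrays, array weights, a trended robust variance, the compared groups alone, the brighter rows, gene averages, array spread as a covariate, a length trend, the replicate block, other sets of rows and leaving out each array.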

Additional observations from a re-analysis of the deposited data

Results flagged for a closer look

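In 9 of 204 sets of 4 values (51 members in 4 groups), 1 array lay far from the other 3 of its group by Dixon's criterion, which chance gives in about 1 of 20 sets. Fed 2 accounted for 4 of the 9. It read 8.41 for Uqcrc1 where the others read 8.98 to 9.01, 9.28 for Uqcrh against 10.00 to 10.14, 3.68 for Cox7b against 6.52 to 7.08, and 11.48 for Atp5f1b against 11.80 to 11.84, all as log2 signals. P3 3 read 9.43 for Ndufs1, with the other P3 arrays at 10.31 to 10.47. P2 3 read 7.78 for Ndufv3 against 7.53 to 7.55, and P3r2 4 read 8.39 for Uqcr11 against 8.10 to 8.14. P3r2 2 read 8.97 for Cox6c against 8.93 in the others, and fed 3 read 3.87 for Cox8b, a dim row, against 3.05 to 3.15. The median deviation of complex IV was -0.10 in P3r2 2 and 0.05 to 0.08 in the other re-fed arrays.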

How the results depend on the processing

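The members' count in P2 against fed stayed within 1.5 times of 31 higher in each of the 29 alternative settings, and 22 of the 31 rises, with the fall of Ndufs1, were called in all of them. In P3 against fed 14 of 19 calls were, in P3 against P2 4 rises and 11 falls of 21, in P3r2 against P3 5 of 9, in P3r2 against fed 1 of 12 and in P3r2 against P2 3 of 14. The comparisons of P3r2 were thus the least stable of the 6. The causes of the changes below were not tested. With 4 arrays a group and 9 dim rows, smaller changes can be missed.

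After quantile normalization 3 members fell in P2 against fed (12.1% of all rows fell), 3 rose and 11 fell in P3r2 against P3 (median -0.10), 6 rose in P3r2 against fed, and the P3r2 against P2 median was -0.39. For P3r2 against fed the count was 7 with arrays centred on their medians, 23 with array weights, 7 with the 2 groups alone and 7 with array spread as a covariate. All rows called higher in these fits were, in that order, 3.2%, 10.7%, 3.46% and 2.33%, against 3.61% in the main fit. Array spread as a covariate also left 1 lower member in P3r2 against P2, where 3.04% of all rows were lower. One lower member in P3 against fed (1) appeared with array weights and without the 3 arrays of narrow spread. Leaving out those 3 arrays gave 12 higher members in P3r2 against P3, where 15.2% of all rows were higher. Over the brighter rows the P3 against P2 median was -0.35. With the length trend removed, 2 fell in P2 and 1 in P3 against fed, 9 rose in P3 against P2, 10 rose in P3r2 against P3 (26.4% of the rows in that fit rose), 20 in P3r2 against fed, and 8 rose and 4 fell in P3r2 against P2. Among differences called in the main analysis or under the alternative, 3 changed sign: Cox6a2 in P3 against P2 without the 3 narrow arrays (-0.63), Uqcrc2 in P3r2 against P3 after quantile normalization (-0.32) and Ndufaf3 in P3 against P2 with the length trend removed (0.01).

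Leaving out 1 array at a time gave 26 to 32 higher and 1 to 1 lower members in P2 against fed (median 0.52 to 0.71), 16 to 20 and 0 to 1 in P3 against fed (0.24 to 0.42), 4 to 6 and 13 to 19 in P3 against P2 (-0.22 to -0.06), 4 to 9 and 2 to 4 in P3r2 against P3 (0.00 to 0.08), 1 to 15 and 0 to 0 in P3r2 against fed (0.34 to 0.54), and 3 to 5 and 1 to 11 in P3r2 against P2 (-0.22 to -0.09). Shares of all rows moved as well, from 1.58% to 4.44% higher in P3r2 against fed and from 2.55% to 6.85% lower in P3r2 against P2.

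With the replicate number as a block, 29 rose and 1 fell in P2 against fed, 19 and 0 in P3 against fed, 5 and 17 in P3 against P2, 5 and 3 in P3r2 against P3, 8 and 0 in P3r2 against fed, and 4 and 9 in P3r2 against P2. The sources do not say that the numbers pair the arrays. Of 24 same-number correlations of deviations, 6 exceeded 0.1 (range -0.46 to 0.30), and 2 of 16 arrays correlated best with their own number. Whether arrays of the same number share a litter, batch or day was not tested. Fits with rows that lack a gene name (18884 rows, or all 19418) and a count with the rows of several symbols (54 members) were added after the data were seen, and no count of members moved by over 1.5 times under them.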
